A study of Mus musculus with 18 samples.

Results

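Fabp7, P2ry14, Gng4, Hvcn1 and Fank1 are 5 genes whose signal was higher with C-type natriuretic peptide (CNP) than with vehicle in the hypertrophic zone of cultured mouse tibiae. They were selected on that difference in signal, as genes outside the study's main pathways, from 18193 genes with a probe set of their own. All 10 probe sets that carry one of these symbols alone were followed, and 7 of them were bright enough to be tested. Tibiae of E15.5 CD1 embryos (embryonic day) of both sexes were kept in minimal medium for 6 days and received CNP (1e-06 M) or vehicle (BSA in HCl, 1 mM as the labels give it) on days 1, 3 and 5. On day 6 the bones were cut into a resting/proliferating (R/P), a hypertrophic (H) and a mineralized (M) zone, and each zone was pooled over about 24 tibiae of a treatment. There were 3 numbered cultures (2, 3 and 4) of each treatment, which gave 6 groups of 3 Affymetrix MOE430_2 arrays, 18 in all. No group carries a transgene or a deletion. The 3 zones of a culture come from the same bones, and a pooled culture, not a bone, is the unit of replication.

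CNP is a peptide made in the growth plate that acts through a receptor which makes cyclic GMP and that promotes growth of the long bones. Growth plate chondrocytes divide, then enlarge as hypertrophic cells, and the matrix they leave is mineralized and replaced by bone. The 5 genes have unrelated products. Fabp7 encodes a fatty acid binding protein best known from radial glia and other glial cells. P2ry14 encodes a G protein-coupled receptor for UDP-glucose and other UDP-sugars. Gng4 encodes a gamma subunit of heterotrimeric G proteins. Hvcn1 encodes the voltage-gated proton channel that lets protons leave the cell and that is known from phagocytes and B cells. Fank1 encodes a protein with fibronectin type III and ankyrin repeat domains that is known mainly from testis.

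The arrays differed in overall brightness, with a trimmed mean of the deposited signal between 158 and 512, and were quantile-normalized, so that every signal below is a normalized signal in arbitrary units unless it is called deposited. Differences are on the log2 scale after 16 was added to each signal, and they understate the change of dim genes. Errors of differences are standard errors of a limma fit with 3 arrays a group. The zone labels were borne out by markers: the summed signal of 5 hypertrophic chondrocyte genes ran from 24002 to 29634 in H arrays and from 2777 to 8544 in R/P arrays, and that of 7 osteoclast genes from 26149 to 30416 in M arrays against at most 8305 elsewhere. The array titled vehicle R/P number 4 has a treatment field that reads CNP, and its title was followed. The log of 4 arrays, all of number 2 (vehicle R/P, CNP R/P, vehicle H and vehicle M), records an aborted protocol. The signal of the 3' actin probe set over that of the 5' one, a ratio that rises as RNA degrades, ran from 2.20 to 2.36 in vehicle and from 2.39 to 3.93 in CNP arrays of the H zone. It ran from 2.44 to 3.05 in vehicle and from 2.55 to 4.85 in CNP arrays of the R/P zone, and from 1.59 to 1.87 in M arrays. Its part in the differences below was not tested.

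Fabp7 had the brightest signal with CNP in the H zone of any of its 6 groups. Its signal in the H zone was 562, 704 and 698 in vehicle cultures 2, 3 and 4, and 1947, 3527 and 3941 in CNP cultures 2, 3 and 4. Every CNP array lay above every vehicle array, with culture 2 the lowest of its group in both treatments. The log2 difference was 2.18 ± 0.25, which is 4.52-fold. P2ry14 was at 82.1, 36.8 and 58.7 in vehicle arrays and at 231, 397 and 349 in CNP arrays of the H zone. The groups did not overlap, and the difference was 2.20 ± 0.29 (4.58-fold).

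Gng4, read by its brightest probe set, was at 135, 113 and 87.7 with vehicle and at 511, 313 and 431 with CNP in the H zone. The groups did not overlap, and the difference was 1.75 ± 0.21 (3.37-fold). Hvcn1 was at 24.0, 24.2 and 21.0 with vehicle, below the signal of 63.5 under which probe sets were left out as dim on their mean over all arrays. It was at 131, 138 and 98.9 with CNP, and the difference was 1.82 ± 0.39 (3.52-fold). Because the vehicle arrays were so dim, the Hvcn1 difference depended on the constant added: it was 2.35 with 1 added and 1.09 with 64 added.

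Fank1 was at 71.1, 129 and 55.6 with vehicle and at 426, 324 and 297 with CNP in the H zone. The groups did not overlap, and the difference was 1.90 ± 0.44 (3.73-fold). The 5 differences ranked 6th (P2ry14), 8th (Fabp7), 9th (Fank1), 12th (Hvcn1) and 13th (Gng4) from the top among the 27022 probe sets tested. These values chose the genes and are given as a description without a test. Over all probe sets, 1.62% passed the test in the H zone and 0.522% passed it as higher with CNP, from which nothing is read for genes picked there.

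In same-numbered pairs of the H zone, each of the 5 genes was higher with CNP in 3 of 3 pairs. The pair differences of Fabp7 were 1.76, 2.30 and 2.47 for cultures 2, 3 and 4, and those of Hvcn1 were 1.88, 1.94 and 1.63. P2ry14 varied more, with 1.33, 2.97 and 2.29. All arrays of number 3 were hybridized on one day and all others on another, so the middle value is also the difference within the first day. By the times in the logs, vehicle and CNP arrays of the H zone were in fluidics runs 3 and 4, 1 and 2, and 4 and 5 for numbers 2, 3 and 4. CNP was in the later run each time, so treatment and run cannot be told apart within these pairs. In deposited signals the CNP and vehicle arrays of the H zone did not overlap for any of the 5 genes either. CNP H number 2 was the dimmest array of all (trimmed mean of 158) and had the actin ratio of 3.93. Deposited P2ry14 was at 98.0 in that array and at 82.8 in vehicle H number 2. The genes were picked for their rise in the H zone, so their lack of overlap there adds no support. The share of all probe sets whose groups do not overlap was not counted in any zone.

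**Figure D1:**
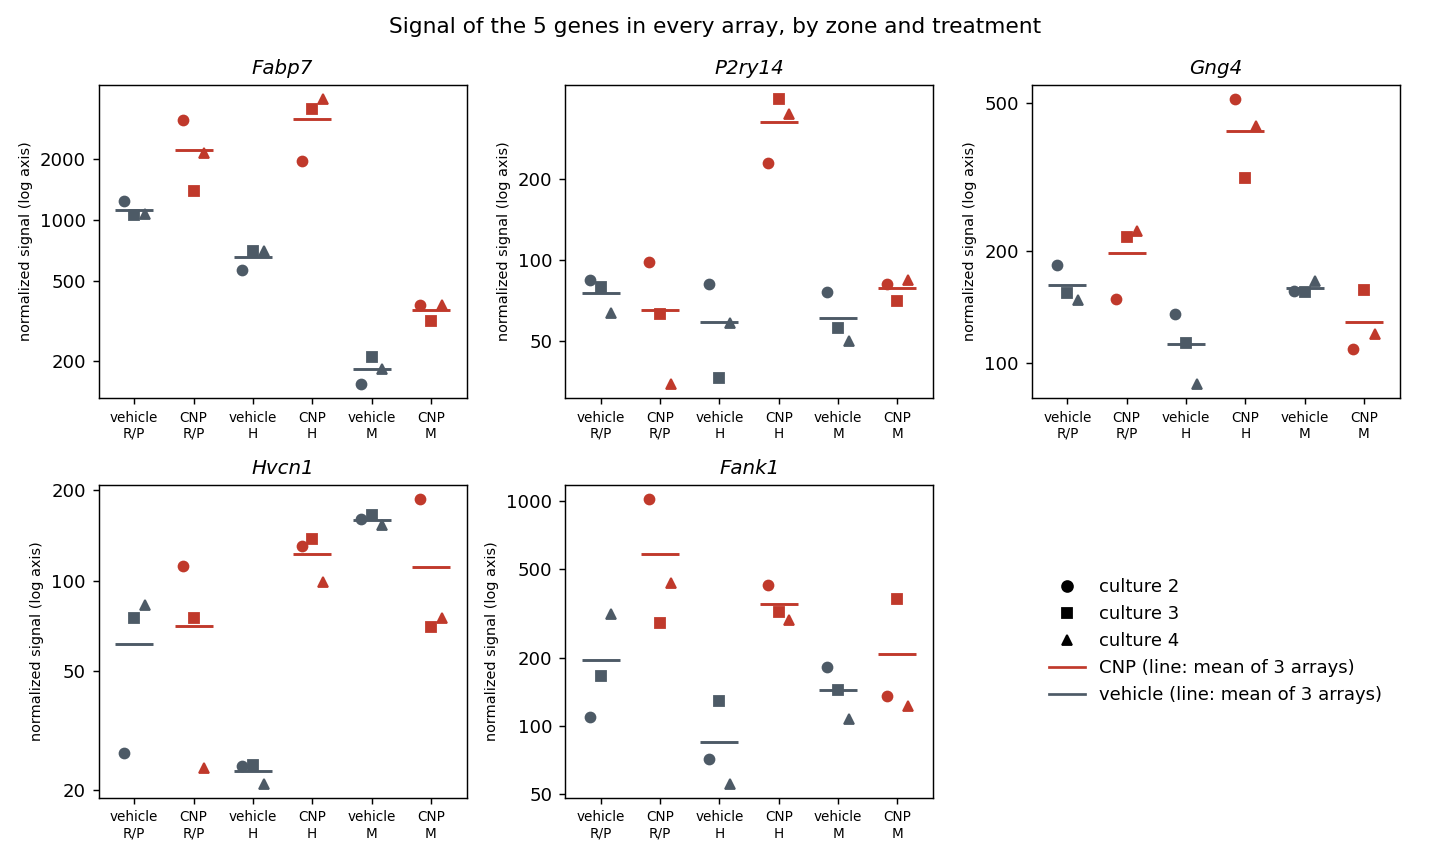
Normalized signal (log axis, arbitrary units) of the brightest tested probe set of each gene in the 18 arrays, by zone and treatment; symbols mark cultures 2, 3 and 4 and lines the mean of 3 arrays. CNP arrays of the H zone lie above vehicle arrays of that zone in all 5 panels, and Fabp7 falls from the R/P to the M zone in both treatments.

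Not every probe set of Gng4 and Fank1 followed its brightest one. The second tested probe set of Gng4 (1417944_at) was at 155, 71.1 and 62.8 with vehicle and at 193, 86.4 and 214 with CNP in the H zone. These groups overlapped, and the difference was 0.69 ± 0.43. The second tested probe set of Fank1 (1447496_s_at) was at 82.8, 156 and 87.1 with vehicle and at 121, 111 and 116 with CNP. It overlapped too, with a difference of 0.13 ± 0.25.

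The other 3 probe sets were too dim to be tested. Gng4 1417943_at differed by 0.22 ± 0.12, Fank1 1419567_at by 0.37 ± 0.30 and Fank1 1447495_at by 0.21 ± 0.39 in the H zone. The larger differences of Gng4 and Fank1 therefore rest on 1 probe set each, 1447669_s_at and 1419566_at, while Fabp7 (1450779_at), P2ry14 (1424733_at) and Hvcn1 (1424032_at) have only 1. Which transcripts each probe set reads was not analysed here.

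**Figure D2:**
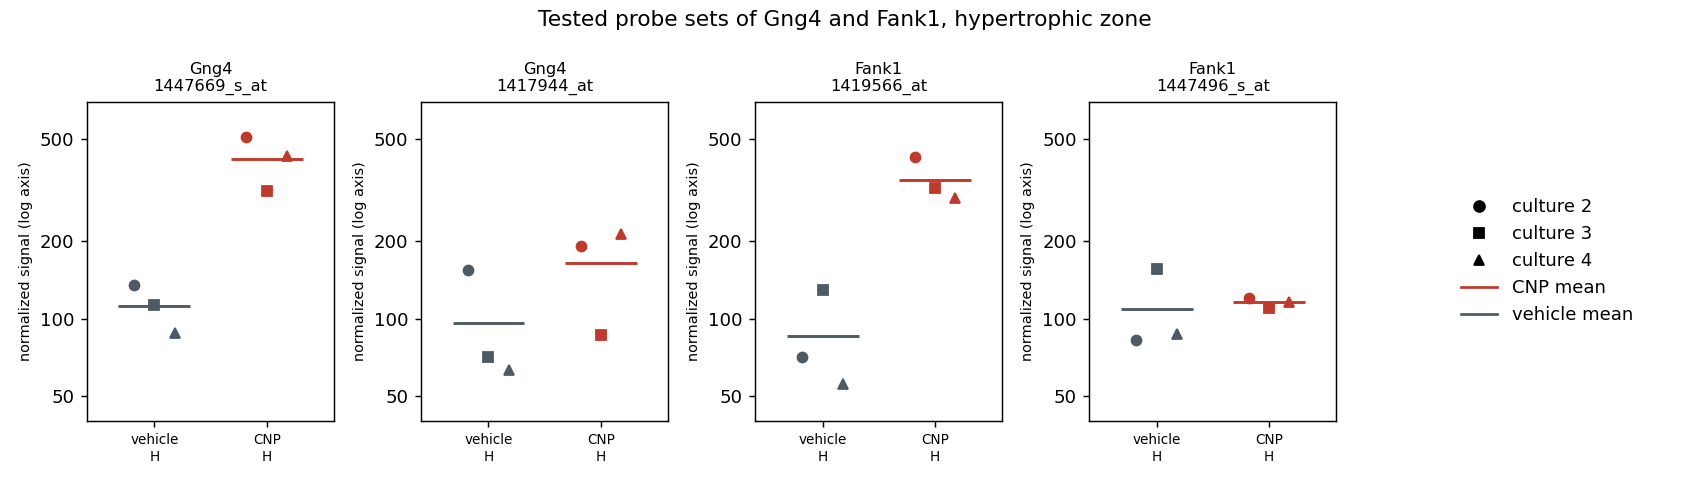
Normalized signal (log axis, arbitrary units) of the 4 tested probe sets of Gng4 and Fank1 in the 6 H arrays, with the mean of 3 arrays as a line. The brighter probe set of each gene separates CNP from vehicle, and in 1417944_at and 1447496_s_at the groups overlap.

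The same genes were then compared between CNP and vehicle in the R/P zone, which did not enter their choice. No member passed the test there. Over all probe sets 7 passed (0.0259%), and 3274 had an unadjusted p under 0.05. Fabp7 was at 1239, 1056 and 1071 with vehicle and at 3096, 1392 and 2140 with CNP. All CNP arrays lay above all vehicle arrays, and the pair differences were 1.31, 0.39 and 0.99. The difference was 0.90 ± 0.25 (limma, Benjamini-Hochberg adjusted p = 0.182). The separation depends on vehicle number 4 (1071), the array whose treatment field reads CNP. Counted as CNP, it lay between the other 2 vehicle arrays, and the Fabp7 difference was 0.63 (limma adjusted p = 0.748).

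Fank1 was at 110, 167 and 315 with vehicle and at 1025, 286 and 435 with CNP in the R/P zone. The groups overlapped through CNP culture 3, although CNP was higher in 3 of 3 same-numbered pairs. The difference was 1.41 ± 0.44 (limma adjusted p = 0.213). With vehicle number 4 counted as CNP it was 1.62 (limma adjusted p = 0.596). The values moved with single arrays, in both directions. Without CNP R/P number 3 the difference was 1.19 for Fabp7 (limma adjusted p = 0.0137) and 1.80 for Fank1 (limma adjusted p = 0.0396), and 912 probe sets passed in place of 7. Without all arrays of number 3, in every zone, neither passed (limma adjusted p = 0.0896 and 0.10). Without CNP R/P number 2 the difference was 0.62 for Fabp7 (limma adjusted p = 0.587) and 0.91 for Fank1 (limma adjusted p = 0.660). Without all arrays of number 2, in every zone, it was 0.69 for Fabp7 and 0.59 for Fank1 (limma adjusted p = 0.529 and 0.816). The arrays of number 2 include the R/P arrays with an aborted log.

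The other 3 genes showed no common direction in the R/P zone. P2ry14 was at 84.5, 79.4 and 63.6 with vehicle and at 98.9, 63.3 and 34.8 with CNP, a difference of -0.24 ± 0.29 (limma adjusted p = 0.801). Gng4 was at 184, 154 and 147 with vehicle and at 148, 217 and 226 with CNP, a difference of 0.25 ± 0.21 (limma adjusted p = 0.696). Hvcn1 was at 26.5, 75.0 and 83.2 with vehicle and at 112, 74.9 and 23.7 with CNP. Its pairs ran in opposite directions (1.59, 0.00 and -1.32), and the mean difference was 0.09 ± 0.39 (limma adjusted p = 0.959). Fitting the culture number as a block raised the number of probe sets called in the R/P zone from 7 to 59 and left all 5 genes uncalled.

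In the M zone no member passed either, against 1 probe set of all tested (0.00370%) and 907 with an unadjusted p under 0.05. Fabp7 was at 155, 210 and 184 with vehicle and at 380, 316 and 379 with CNP. All CNP arrays were higher, in 3 of 3 pairs, and the difference was 0.92 ± 0.25 (limma adjusted p = 0.931). In deposited signals these groups overlapped. P2ry14 was at 76.4, 56.2 and 50.2 with vehicle and at 81.7, 71.0 and 84.5 with CNP, a difference of 0.32 ± 0.29.

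Hvcn1 was at 160, 166 and 153 with vehicle in the M zone, its brightest group, and at 187, 69.8 and 74.9 with CNP. The difference was -0.59 ± 0.39, with CNP culture 2 above and cultures 3 and 4 below every vehicle array. Gng4 differed by -0.29 ± 0.21 and Fank1 by 0.35 ± 0.44 in the M zone, with overlapping groups. The second tested probe set of Gng4 (1417944_at) differed by 0.91 ± 0.43 there, also with overlapping groups, and did not pass. Each of P2ry14, Gng4, Hvcn1 and Fank1 had a limma adjusted p of 1.00 there.

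The CNP response in the M zone minus that in the R/P zone was tested directly, within cultures. No probe set passed in limma (0%, with 2007 at an unadjusted p under 0.05). It was 0.02 ± 0.37 for Fabp7, 0.56 ± 0.41 for P2ry14, -0.53 ± 0.31 for Gng4, -0.68 ± 0.45 for Hvcn1 and -1.06 ± 0.64 for Fank1. The response of the H zone was not tested against the others, since it chose the genes. Side by side, in the brightest probe set of each gene, P2ry14, Gng4 and Hvcn1 had H differences of 1.75 to 2.20. Their differences in the other zones were -0.59 to 0.32. Fabp7 (0.90, 2.18 and 0.92 in the R/P, H and M zone) and Fank1 (1.41, 1.90 and 0.35) had positive differences in all 3 zones. The M value of Fank1 was -0.12 without CNP M number 3. The second tested probe set of Gng4 did not have its largest difference in the H zone, with 0.42 in the R/P, 0.69 in the H and 0.91 in the M zone.

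**Figure D3:**
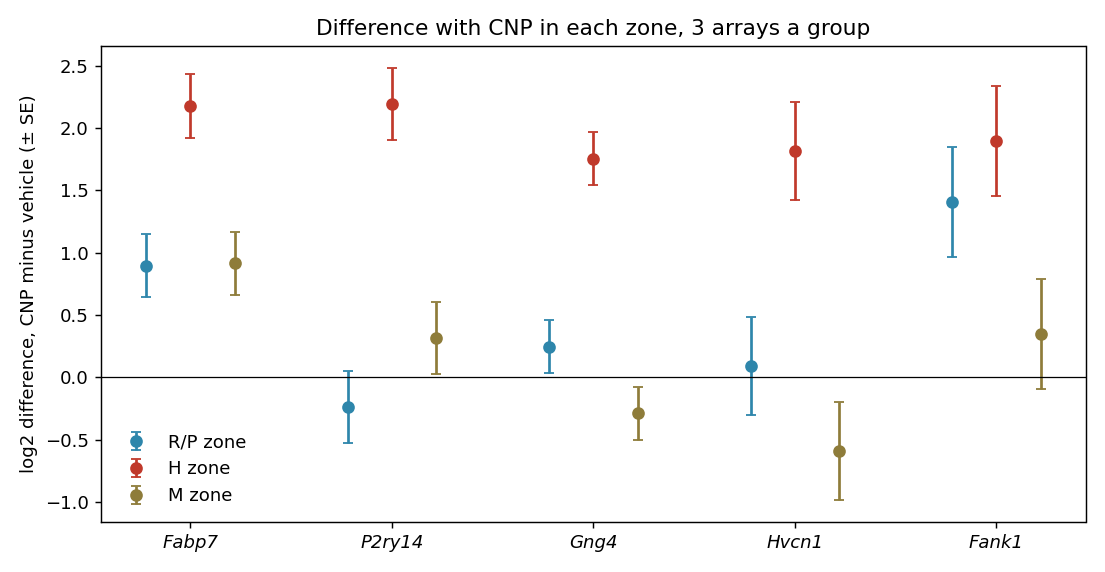
Log2 difference of CNP minus vehicle for the brightest tested probe set of each gene in the R/P, H and M zone, with the standard error of the limma fit (3 arrays a group). The H values, which chose the genes, lie between 1.75 and 2.20, and the R/P and M values between -0.59 and 1.41.

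The genes also differed in where along the bone they were expressed. Compared between the M and the R/P zone of the same cultures, 2 of 5 genes passed with vehicle and 2 of 5 with CNP, where 30.9% and 36.7% of all probe sets passed. Fabp7 was lower in the M zone by a log2 difference of -2.52 ± 0.26 with vehicle (limma adjusted p = 3.38e-06) and of -2.50 ± 0.26 with CNP (limma adjusted p = 3.04e-06). This is 5.74-fold and 5.67-fold lower, and the ranges of the zones did not overlap in either treatment. Without CNP, Fabp7 fell in order from the R/P to the H to the M zone with no overlap between neighbours. The H arrays entered the choice of the gene, so the place of the H zone in this order is a description without a test. With CNP the H and R/P ranges overlapped (1947 to 3941 and 1392 to 3096) and the M zone stayed below both.

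Hvcn1 was higher in the M than in the R/P zone with vehicle, by 1.27 ± 0.32 (limma adjusted p = 0.00676). The call was lost without all arrays of number 2 (0.88, limma adjusted p = 0.0790) and without either vehicle array of number 2 in these zones. It was also lost when the 4 arrays whose protocol was aborted were left out. With CNP the difference was 0.59 ± 0.32 (limma adjusted p = 0.170). Fank1 was lower in the M than in the R/P zone with CNP, by -1.37 ± 0.46 (limma adjusted p = 0.0273). That call was lost in 8 of 20 alternatives and without all arrays of number 2 the difference was -0.68 (limma adjusted p = 0.332). With vehicle Fank1 differed by -0.31 ± 0.46 (limma adjusted p = 0.657).

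Neither P2ry14 nor Gng4 passed between these zones. P2ry14 differed by -0.26 ± 0.29 with vehicle and by 0.29 ± 0.29 with CNP. Gng4 differed by -0.02 ± 0.22 with vehicle and by -0.55 ± 0.22 with CNP (limma adjusted p = 0.0636). Gng4 passed in 4 of 20 alternatives with CNP, among them the fit without CNP R/P number 2 (-0.76, limma adjusted p = 0.0267). For P2ry14 and the brightest probe set of Gng4 the H arrays with CNP lay above all other groups, whose neighbours all overlapped. The H arrays entered the choice of every member, so the place of the H groups here and in the orders below is a description without a test. The share of all probe sets with such an order was not counted. In Gng4 1417944_at the highest mean was with CNP in the M zone, at 235 against 164 with CNP in the H zone. By its means, Hvcn1 was brightest in vehicle M arrays, next in CNP H arrays and dimmest in vehicle H arrays. Both ends were apart from their neighbour in that order but not from every group. The vehicle M range (153 to 166) lay inside that of CNP M (69.8 to 187), and CNP R/P number 4 (23.7) lay inside the vehicle H range (21.0 to 24.2). For Fank1, from CNP R/P at the top to vehicle H at the bottom, all neighbours overlapped.

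**Figure D4:**
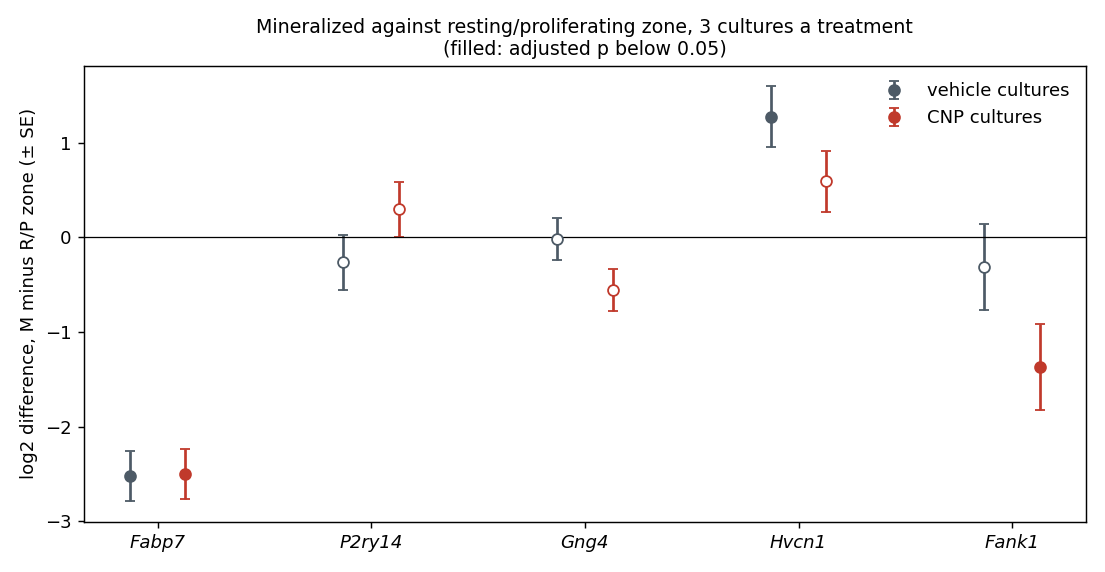
Log2 difference of the M minus the R/P zone within cultures for each gene, by treatment, with the standard error of the limma fit (3 cultures a treatment). Filled points passed at an adjusted p under 0.05, and Fabp7 lies near -2.5 in both treatments.

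Markers of other cell types moved with some of these differences. In bulk samples fewer cells of a type and less RNA per cell cannot be told apart. Fabp7 is a glial gene, and the summed signal of 8 Schwann cell and glia markers was 4359 to 4947 with vehicle and 5940 to 7032 with CNP in the H zone. None of the 7 tested passed there: Mbp, a myelin protein, differed by 1.05 (limma adjusted p = 0.0760) and Cdh19 by 0.79 (limma adjusted p = 0.112). Ngfr went the other way, with -0.28 (limma adjusted p = 0.612). The list's sum was also higher with CNP in the R/P zone (5789 to 5989 against 5027 to 5606), and in the M zone it was 1258 to 1620. In the R/P zone the mean of S100b was 4045 with vehicle and 4556 with CNP. Sox10 (499 and 619), Erbb3 (51.5 and 63.1) and Gfra3 (139 and 154) were also higher with CNP in that zone. Mbp (294 and 282), Cdh19 (149 and 139) and Ngfr (88.4 and 68.1) were lower with CNP in that zone. S100b, which cartilage expresses too, made up most of the sum in the R/P zone and carried its fall to the M zone, from a mean of 4045 to one of 298 with vehicle. Mbp, Cdh19 and Erbb3 were not lower there with vehicle: the mean was 294 in the R/P and 354 in the M zone for Mbp, 149 and 162 for Cdh19, and 51.5 and 66.7 for Erbb3. Sox10 was lower in the M zone with vehicle, at 320 against 499. Gfra3 (124 against 139) and Ngfr (76.2 against 88.4) were slightly lower there, and Foxd3 was dim. The part of glial cells in the Fabp7 differences was not tested.

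Hvcn1 is known from leukocytes, and the summed signal of 6 B cell and leukocyte markers was 4394 to 5097 in vehicle M arrays and 535 to 625 in vehicle R/P arrays. Laptm5 (a mean of 302 in the R/P and 3821 in the M zone) and Ptprc (85.6 and 697), which leukocytes share, carried that difference. The B cell markers differed little, with means of 98.6 and 107 for Cd79a and 75.3 and 82.7 for Ms4a1, and Cd79b was dim. In the H zone the list overlapped between vehicle (1316 to 2335) and CNP (920 to 2110), where 0 of 4 tested markers passed. The 7 osteoclast markers were lower with CNP in the H zone, at 2708 to 4812 against 7208 to 8305, and 2 of 6 tested fell, Mmp9 with a log2 difference of -1.17 (limma adjusted p = 0.0251) and Itgb3 with one of -1.15 (limma adjusted p = 0.0176). The summed signal of 7 macrophage markers in the H zone was 1446 to 1898 with CNP and 1620 to 2151 with vehicle, and Cd68 fell, with a log2 difference of -1.07 (limma adjusted p = 0.0428). For Fank1, the summed signal of the 5 germ cell markers overlapped between treatments in every zone, and 4 of them were dim. The 6 skeletal muscle markers summed to 465 to 700 with vehicle and 728 to 1139 with CNP in the H zone, without overlap, and 2 of 3 tested passed in opposite directions. Tnnt3, a fast troponin, rose by 1.82 (limma adjusted p = 0.00674), and Tnni1, a slow one, fell with a log2 difference of -1.89 (limma adjusted p = 0.0239). In the R/P zone Ibsp, a bone matrix gene on the hypertrophic and osteoblast lists, was the marker that passed, with -1.24 (limma adjusted p = 0.0198). The part of these cells was not tested.

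Relatives and partners of the 5 genes were read from 7 lists. Among UDP-sugar makers and carriers, Ugp2, the enzyme that makes UDP-glucose, rose with CNP in the H zone by 0.47 ± 0.12 (limma adjusted p = 0.0449). It was 1 of 14 tested, and the median difference of the list was 0.11 against -0.01 over all probe sets. Of its 4 other tested probe sets 3 passed as well (0.94, 0.72 and 0.62), and the last was at 0.42 (limma adjusted p = 0.0836). The call on the brightest probe set was lost in 17 of 23 alternatives, with no change of direction. The largest difference on the list was in the other direction and did not pass: Gnpda1, a glucosamine-6-phosphate deaminase, at -1.02 ± 0.26 (limma adjusted p = 0.0563).

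No tested gene of the other 6 lists passed in any zone, and no tested UDP-sugar gene passed in the R/P or M zone. In the H zone, 5 of 13 fatty acid and retinoid binding proteins were tested, with a median of -0.32; Fabp3, the heart-type member, differed by 0.54 ± 0.19 (limma adjusted p = 0.172). Of 11 receptors for nucleotides and their relatives 3 were tested, with a median of 0.23. Among the 7 too dim to be tested, Gpr171 had a mean of 6.78 with vehicle and 70.0 with CNP in the H zone. Its means in the other zones were 3.47 to 5.89. P2ry1 and P2ry10, also dim, were lower with CNP in the H zone (4.28 against 5.38 and 22.4 against 25.1). Gpr183, an oxysterol receptor, differed by 0.35 ± 0.31 in its brightest probe set, and by 1.58 in its other tested one (limma adjusted p = 0.0549). Gng2, another gamma subunit, differed by 0.01 in the probe set used here.

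Of 16 G protein beta and gamma subunits 14 were tested, with a median of 0.00 in the H zone, and Gng11 differed by -0.52 ± 0.20. The 11 tested of 13 alpha subunits had a median of 0.00, and Gnao1 differed by -0.90 ± 0.42. The 14 tested of 24 genes of acid export and NADPH oxidase had a median of 0.04, and Nox4, an oxidase catalytic subunit, differed by 0.76 ± 0.40. The 8 partners of FANK1 reported in human cells and AP-1 genes had a median of -0.21, and Fosb, an AP-1 subunit, differed by -0.68 ± 0.31.

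In the R/P zone the largest difference in each list was Fosl1, an AP-1 subunit, at 1.45, Gna12 at -0.78, Gng13 at 0.69, Gnpda1 at -0.62, Pmp2 at 0.37, Car12 at 0.36 and Gpr183 at -0.28. In the M zone it was Pgm3 at 0.75, Gng13 at 0.56, Car2, a carbonic anhydrase, at 0.47, Jund at 0.44, Gnao1 at 0.40, Fabp3 at 0.22 and P2ry4 at 0.18. None of these passed.

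The genes whose signal followed each member most closely were looked for among 13247 genes over the 18 arrays, which share zones, treatments and cultures. For Fabp7 they were Pno1 (Pearson r = 0.935), Gtf2f2 (r = 0.935) and Gdf5 (r = 0.922), a growth factor of joint and cartilage formation. The mean signal of Gdf5 was 133 with vehicle and 686 with CNP in the H zone. For P2ry14 they were Scyl2 (r = 0.840), Scube3 (r = 0.840) and Inhba (r = 0.827), which encodes an activin subunit. Scube3 had a mean of 183 with vehicle and 1052 with CNP in the H zone.

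For Gng4 they were Slc13a4 (r = 0.849), a sulfate transporter, Slc20a1 (r = 0.814), a phosphate transporter, and Chl1 (r = 0.810). For Fank1 they were Farsb (r = 0.828), Inip (r = 0.824) and Cks2 (r = 0.807), a cell cycle protein. For Hvcn1 no gene came above Afap1 (r = 0.760), followed by Sh3rf1 (r = 0.757) and Foxn2 (r = 0.750). Within groups, after the group means were taken off, r was between 0.51 and 0.71 for the 3 genes of Hvcn1 and of Fank1 and between 0.00 and 0.38 for those of Fabp7. Between members, r over the 18 arrays was highest for P2ry14 and Gng4 (0.730) and lowest for Fabp7 and Hvcn1 (-0.189). With the group means taken off, r was -0.450 for P2ry14 and Gng4 and 0.028 for Fabp7 and Hvcn1, and the 0.730 includes the H zone rise for which both genes were selected.

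Promoter windows of RefSeq (build GRCm38.p6), the 250 bases before a gene's start, were matched for 4 of the 5 genes, in 8 windows. They are shown because these genes were higher together in the H zone, with capitals on TGACG, the short element of the cyclic AMP response element and on the AP-1 motif TGANTCA, each searched on both strands. The full element TGACGTCA lay in none of the 8 windows and in 1.546% of all 32851 windows. The short element lay in 17.77% of all windows, and among the members in the Fank1 window, as its reverse complement, and at the second start of Gng4. The AP-1 motif lay in 6.749% of all windows and at 2 of the 4 starts of P2ry14, and the motifs do not overlap each other in these windows. Fabp7 had no match. A match is a description of letters and not a binding site.
Fabp7 (chr10:57784673-57784922, plus strand): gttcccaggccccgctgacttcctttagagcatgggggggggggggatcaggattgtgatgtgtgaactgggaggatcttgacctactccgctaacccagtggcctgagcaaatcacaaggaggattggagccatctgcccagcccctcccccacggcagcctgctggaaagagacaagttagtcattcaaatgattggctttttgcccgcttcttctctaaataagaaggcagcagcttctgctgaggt
P2ry14, first start (chr3:59153493-59153742, minus strand): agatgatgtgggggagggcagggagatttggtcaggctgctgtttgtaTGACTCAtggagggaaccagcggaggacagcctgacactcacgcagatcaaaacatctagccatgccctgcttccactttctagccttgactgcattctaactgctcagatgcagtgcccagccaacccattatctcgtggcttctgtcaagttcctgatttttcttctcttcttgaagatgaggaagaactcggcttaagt
Gng4, second start, a stretch of 24 bases (chr13:13784252-13784275, plus strand): ccagTGACGcaccagTGACGtcgg
Fank1 (chr7:133776641-133776890, plus strand): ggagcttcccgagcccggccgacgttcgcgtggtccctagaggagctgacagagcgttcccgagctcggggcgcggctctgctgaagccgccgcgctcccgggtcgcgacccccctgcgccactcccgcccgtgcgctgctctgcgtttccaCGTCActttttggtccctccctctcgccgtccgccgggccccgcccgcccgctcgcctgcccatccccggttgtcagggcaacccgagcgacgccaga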

How the data were processed

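RNA of 18 arrays was read from a deposited table of linear signal intensity per probe set (0 to 20519); the submitters analysed their results in GeneSpring 7.2 per the series design, and the software that made the intensity values is not named in the sources at hand. Of 45101 probe sets, 64 controls were left out. Intensities were quantile-normalized and fitted as log2(signal + 16) in limma 3.58.1 under R 4.3.3 (moderated by eBayes along the intensity trend; all tests two-sided). P-values were adjusted by Benjamini-Hochberg over 27022 probe sets, and a probe set was called below an adjusted 0.05. Treatments were compared zone by zone in 1 fit of all arrays. Zones were compared inside each culture, which entered as a fixed block. The number of arrays limits the precision. Groups came from the titles; tests were tried on simulated data.

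The 40% of probe sets with the lowest mean signal were left out. A first run took the arithmetic mean (a signal of 68.3) for this and for the brightest probe set of a gene. The log2-scale mean (63.5) was adopted afterwards, with the first results already seen, because it follows an earlier processing of these data. The switch left the main probe set of all 5 members as it was. It changed 4 of 21 list entries and 3 of 15 like genes that the naming rule gives; both versions are in the closing section.

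The members, the lists and the naming rule were chosen with earlier results of these data known. The rule named the members, the 3 genes most like each, and of each of the 7 lists up to 4 called genes per CNP comparison or else the 1 with the largest difference. Gng2, Gnpda1 in the H zone, the second Gpr183 probe set, the dim receptors Gpr171, P2ry1 and P2ry10, and the marker genes given as examples were named after their values were seen.

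The deviations of same-numbered CNP and vehicle arrays had r = 0.187, 0.378 and 0.154 in the R/P zone. In the H zone r was -0.018, 0.091 and 0.123, and in the M zone it was 0.137, 0.118 and 0.062. Numbers were taken to pair where r was at least 0.1, which every pair met in the R/P zone only. The part of a shared hybridization day or fluidics run in these values was not tested. No 2 arrays held the same values, and the highest correlation between arrays was 0.975. Gene symbols came from the platform annotation (34945 probe sets with 1 symbol, 932 with several, 9160 with none). Alternatives covered normalization, the constant added, the dim filter, the trend, the arrays fitted, blocks for number and day, and each array left out. A block for the fluidics run, the fit without the 4 arrays with an aborted log and the arithmetic-mean filter were chosen after seeing the data. Figures were drawn with matplotlib.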

Additional observations from a re-analysis of the deposited data

How the results depend on the processing

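The H zone differences of the 5 genes kept their sign under every alternative run, from 1.98 to 2.49 for Fabp7, 1.65 to 2.63 for P2ry14, 1.35 to 1.95 for Gng4, 1.09 to 2.35 for Hvcn1 and 1.48 to 2.23 for Fank1, other probe sets aside. The M against R/P call of Fabp7 held in all 20 alternatives of each treatment. Calls of Hvcn1, Gng4 and Fank1 that changed are given with their results above. With 3 arrays a group, the lower overall signal of some arrays (trimmed mean of 158 in the dimmest and 512 in the brightest) limits what dim probe sets can show. The cause of the changes below was not tested.

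The filter on the arithmetic mean, used in a first run, gave 459 probe sets called in the H zone in place of 438, 8477 and 10035 in place of 8339 and 9909 between zones, the same counts of 7, 1 and 0 otherwise, and no other call for any member. It changed which genes the rules name: Gng2 by a brighter probe set (1.39 in the R/P zone with adjusted p = 0.265 in limma, and 1.30 in the H zone with adjusted p = 0.221), Gpr183 by its other probe set in the H zone (1.58, limma adjusted p = 0.0536) and P2ry13 in the R/P zone (0.11). Among like genes it gave Cxcl14 (r = 0.933) for Fabp7, Dsc2 (r = 0.849) for P2ry14 and Micos10 (r = 0.801) for Fank1 in place of Gdf5, Inhba and Cks2.

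The count of 7 in the R/P zone was 1 with median centring, 0 without normalization, 3 with 64 added, 4 without a dim filter, 14 with the filter at the median, 1 without the trend, 0 with the compared groups alone, 59 with the replicate block, 46 with the day as a block, 3 with vehicle number 4 counted as CNP, 0 without the 4 arrays with an aborted log, and 0 to 912 with arrays left out (912 without CNP number 3, 0 without vehicle number 2). The count of 1 in the M zone was 0 with median centring, without normalization, without the trend, with the compared groups alone and without the 4 arrays, 4 without a dim filter, 2 with the replicate block and 0 to 4 with arrays left out. The count of 438 in the H zone was 94 without normalization, 155 with the compared groups alone, 674 with the replicate block, 665 with the day and 184 with the fluidics run as a block, 176 without the 4 arrays and 71 to 609 with arrays left out. In the R/P zone the replicate block left Fabp7 (limma adjusted p = 0.144) and Fank1 (limma adjusted p = 0.173) uncalled, and it changed no member's call in the M zone. Between zones, the vehicle count was 5490 to 6981 with arrays left out, the CNP count 5243 without normalization, and the count of differing responses 3 without normalization and 0 to 16 with arrays left out.

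Values that were not called also changed sign. With arrays left out, CNP against vehicle in the R/P zone ran from -0.53 to 0.063 for P2ry14, -0.66 to 0.80 for Hvcn1 (-0.66 without the 4 arrays) and -0.62 to 0.24 for Gpr183, and in the M zone from -0.12 to 0.72 for Fank1 and -0.089 to 0.76 for Gnao1. M against R/P ran from -0.15 to 0.10 for Gng4 and -0.81 to 0.26 for Fank1 with vehicle and from -0.062 to 0.68 for P2ry14 with CNP, and the difference of responses from -0.29 to 0.43 for Fabp7 and -1.86 to 0.13 for Fank1. Without normalization, values were -0.21 for Fabp3, -0.12 for P2ry4 and -0.0013 for Jund in the M zone, -0.051 for Gpr183 in the H zone, 0.36 for P2ry14, 0.67 for Gng4 and 0.35 for Fank1 between zones with vehicle, and -0.43 for the Fabp7 difference of responses. That difference was -0.049 with median centring and -0.096 with 64 added, and Gng4 between zones with vehicle was 0.014 with median centring and 0.078 without the 4 arrays. Gng4 probe set 1417944_at gave 0.91 with CNP in the M zone, 0.29 and 0.79 between zones with vehicle and CNP, and 0.49 for the difference of responses, and dim 1417943_at gave 0.011, 0.10 and 0.025 for the first 3. Fank1 1447496_s_at gave 0.038 between zones with vehicle, dim 1419567_at -0.076 with CNP in the M zone, and dim 1447495_at -0.36 in the R/P and -0.19 in the M zone and 0.17 for the difference of responses. The day as a block was not run between zones, since it is fixed by the culture, nor was vehicle number 4 counted as CNP there.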
